A study of Mus musculus with 6 samples.

Results

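Mural1 was 1 of the 38 clusters that the authors of the study defined among single cells of the mouse olfactory bulb, and it held 158 of the 51426 annotated cells, or 0.307%. Its cells were taken by the cluster name in the deposited annotation. They were described beside Mural2 (769 cells), the other cluster named as mural, and beside the endothelial clusters EC1 (2524 cells) and EC2 (1124 cells). The RNA came from C57BL/6NJ mice of 14 weeks in 6 libraries, each a pool of 3 mice. The 2 control libraries came from mice without manipulation, the 2 naris occluded libraries from bulbs deprived of odor input by blocking a nostril for 6 weeks, and the 2 olfactory trained libraries from mice that learned to discriminate odorants for 6 weeks. The study describes the controls both as naive mice and as the open side of occluded mice, so the control state is given here as the labels give it. All groups were otherwise wild type, male mice were pooled for replicate 1 of each condition and female mice for replicate 2, and the tissue included some olfactory epithelium. In Mural1, Xist, the RNA that silences an X chromosome in female cells, had 0 UMIs (unique molecular identifiers, each marking 1 captured RNA molecule) in every replicate 1 library and between 76 and 219 in the replicate 2 libraries.

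Mural cells wrap the endothelial tube of blood vessels. Pericytes sit on capillaries within the basement membrane that they share with the endothelium, and smooth muscle cells ring arterioles and venules. Pericytes depend on PDGF-B released by endothelial cells, which they sense with the receptor encoded by Pdgfrb, and endothelial cells of the brain form the blood-brain barrier with tight junctions and transporters such as Slco1c1, which carries thyroid hormone.

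The 158 Mural1 cells, each a cell barcode of the count data, carried RNA of both vessel cell types. Whether a barcode held RNA of several cells was not tested. Pdgfrb was measured at 668 ± 149 CPM (CPM, a gene's share of the UMIs summed over the cells of a cluster in a library, scaled to 1e6, mean ± SD, n = 6 libraries) in Mural1, 1254 CPM in Mural2 and 9.47 CPM in EC1. Slco1c1 was measured at 508 ± 91.4 CPM in Mural1, 901 CPM in EC1 and 25.6 CPM in Mural2. The label of a mural cluster therefore holds for its pericyte genes. A list of 22 endothelial genes had more UMIs in these cells than a list of 16 pericyte genes. In their own clusters the lists differed too, at 33306 CPM in EC1 and 27226 CPM in Mural2. The order of the sums therefore does not rank the cell types. The cluster is called Mural1 below by its name in the annotation.

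By library, Pdgfrb stood at 483 and 618 CPM in the control, 767 and 619 CPM in the naris occluded and 612 and 912 CPM in the olfactory trained libraries of Mural1. Slco1c1 stood at 472 and 584 CPM in the control, 434 and 384 CPM in the occluded and 557 and 615 CPM in the trained libraries. Each library of Mural1 thus lay below each library of Mural2 for Pdgfrb, where the range was 1130 to 1372 CPM, and below each library of EC1 for Slco1c1, where the range was 849 to 941 CPM. It lay above every EC1 library for Pdgfrb, which reached 14.8 CPM, and above every Mural2 library for Slco1c1, which reached 54.7 CPM. Since the clusters were made from these genes, levels between clusters are given as descriptions, without a test.

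Mural1 had more UMIs per barcode than the other vessel clusters. The median number of UMIs per Mural1 cell was 3568 and 4158 in the control, 4182 and 2929 in the occluded and 3058 and 3866 in the trained libraries. The library medians ran from 1194 to 1614 in Mural2, from 1402 to 1809 in EC1 and from 706 to 871 in EC2, so no library of Mural1 overlapped with theirs. The fold was 2.60 over Mural2 (log2 ratio 1.38 ± 0.08, SD, n = 6), 2.15 over EC1 (1.11 ± 0.10) and 4.79 over EC2 (2.26 ± 0.20). Each was higher in 6 of 6 libraries. The adjusted p was 0.0313 in an exact two-sided sign-flip permutation test over libraries, the smallest p that 6 libraries allow. Cluster membership came from the same counts, although the authors regressed out UMI content, so depth and membership cannot be taken as independent. The p-value covers only how alike the libraries were. The Mural1 median also lay above the sum of the Mural2 and EC1 medians of the same library in all 6, at 1.18 ± 0.06 times that sum (SD, n = 6). Mural1 cells had between 1543 and 2024 genes detected as library medians, against 732 to 942 in Mural2 and 856 to 1045 in EC1. Their median mitochondrial share, 6.81% to 7.90%, was below the 8.60% to 11.05% of Mural2 in every library.

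**Figure D1:**
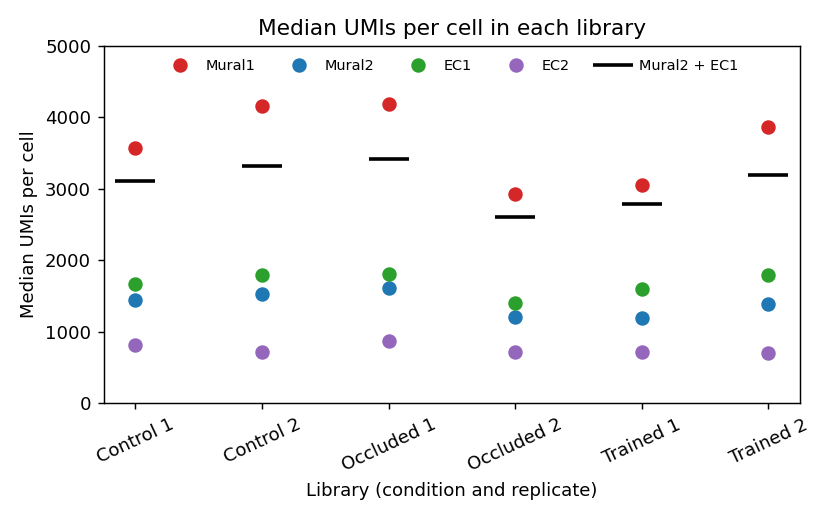
Median UMIs per cell (y axis) in each of the 6 libraries (x axis) for Mural1, Mural2, EC1 and EC2, with a black bar at the sum of the Mural2 and EC1 medians. The Mural1 points, 2929 to 4182 UMIs, lie above the black bar of their own library in all 6.

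Pericyte and endothelial RNA occurred in the same Mural1 barcodes and not in separate subsets of the cluster. The mean number of UMIs of the pericyte list per cell was 57.9 ± 15.3 in Mural1, 42.4 ± 8.40 in Mural2 and 1.32 ± 0.10 in EC1 (SD, n = 6 libraries). For the endothelial list it was 74.1 ± 12.4 in Mural1, 62.9 ± 10.4 in EC1, 16.8 ± 3.19 in EC2 and 2.26 ± 0.39 in Mural2. Per barcode, Mural1 therefore had 1.35 times the pericyte UMIs of Mural2 (log2 ratio 0.43 ± 0.25) and 1.18 times the endothelial UMIs of EC1 (0.24 ± 0.06), both above 1 in 6 of 6 libraries. The lowest Mural1 cell had 8 UMIs of the pericyte list and the lowest for the endothelial list had 7.

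At least 10 UMIs of both lists were found in 156 of 158 Mural1 cells (98.7%). The same was found in 20 of 769 Mural2 cells (2.60%), 72 of 2524 EC1 cells (2.85%) and 14 of 1124 EC2 cells (1.25%), and in 199 of the 46851 cells of all other clusters (0.425%). The minimum itself favors deep cells, and those that met it had a median of 2444 UMIs in Mural2, 3170 in EC1 and 4222 in EC2. At 20 UMIs of both lists, 140 Mural1 cells (88.6%) remained, beside 3 of Mural2, 11 of EC1 and 2 of EC2.

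**Figure D2:**
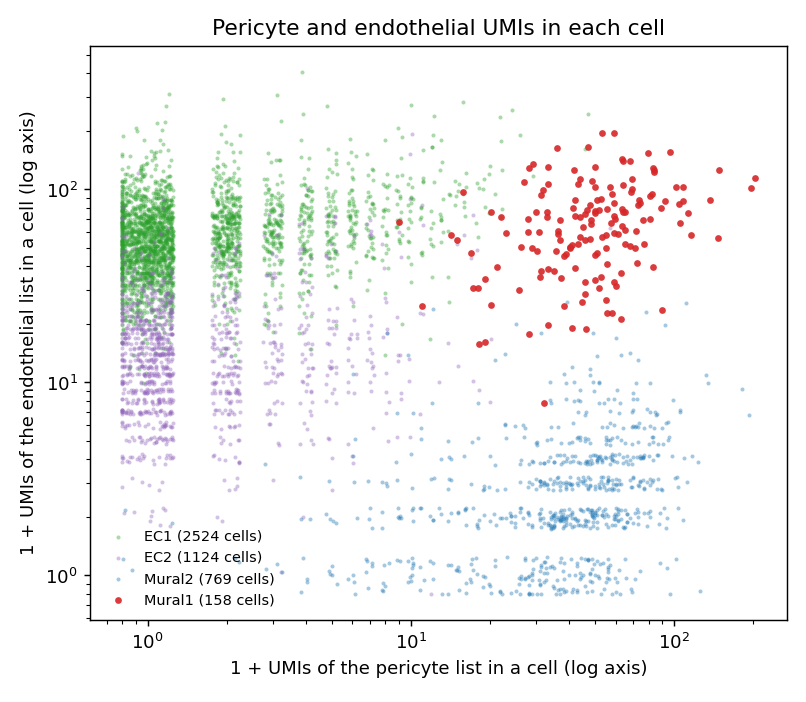
Each point is a cell, placed by its UMIs of the 16 pericyte genes (x axis) and of the 22 endothelial genes (y axis), both as 1 + UMIs on log axes with a small jitter. Mural1 cells (red) have medians of 49 pericyte and 66 endothelial UMIs, while Mural2 has medians of 40 and 1, EC1 of 0 and 55, and EC2 of 0 and 13.

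The share of endothelial UMIs among the UMIs of both lists had a median of 55.7% per Mural1 cell. The middle 90% of cells ran from 32.1% to 79.9% and the extremes from 18.4% to 89.3%. A share between 20% and 80% was found in 149 Mural1 cells (94.3%), in 5.74% of Mural2 cells, 0.555% of EC1 cells and 12.5% of EC2 cells. The quartiles lay at 46.5% and 65.8%, and no Mural1 cell reached the median share of Mural2 (3.39%) or EC1 (100%).

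Depth alone raises the chance to catch a UMI, so each cell was also thinned to 500 UMIs by random draw, which left out 0 cells of the 4 vessel clusters. After thinning, UMIs of both lists remained in 98.1% of Mural1 cells, against 44.1% in Mural2, 18.5% in EC1 and 26.9% in EC2. In the neuronal clusters the share was 1.94%, and it was 1.5% without the neuronal cluster N11, which had a high level of the endothelial list and was set aside after seeing the data. With a minimum of 2 UMIs of each list the shares were 94.9% in Mural1, 14.8% in Mural2 and 7.17% in EC1. For the pair of single genes, Pdgfrb and Slco1c1 were both caught in 10 of 158 thinned Mural1 cells (6.33%, exact 95% interval 3.08% to 11.3%, covering counting error only), in 0.390% of Mural2, 0.0396% of EC1 and 0.00444% of neuronal cells. The share in Mural1 was 0% with at least 2 UMIs of each gene and 14% after thinning to 1000 UMIs. Without thinning the shares were 66.5% in Mural1, 2.21% in Mural2, 1.31% in EC1 and 0.178% in neuronal cells (0.0278% without N11), at median depths of 3508, 1349, 1621 and 1013 UMIs.

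Over the whole bulb, both lists were high together in Mural1. Its pooled levels were 18519 CPM for the endothelial and 14134 CPM for the pericyte list. Mural2 had 1477 and 27377 CPM, EC1 had 33118 and 707 CPM, and EC2 had 15582 and 1144 CPM. Outside the vessel clusters, the highest endothelial level was the 7218 CPM of the neuronal cluster N11. The highest pericyte level was the 2540 CPM of the ensheathing glia cluster OEC2. These names are those of the annotation, where N11 has 951 cells and OEC2 has 1740, and the study's supplement numbers these clusters differently. The astrocyte cluster Astro1 had 394 CPM of the endothelial and 286 CPM of the pericyte list.

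The pericyte genes of Mural1 stood between those of Mural2 and EC1 for 16 of 16 list members. Vtn, which encodes vitronectin of the extracellular matrix and had the highest level of the list in Mural1, was at 4235 ± 955 CPM, against 10773 CPM in Mural2 and 106 CPM in EC1 (SD, n = 6). Its library values in Mural1 ran from 3295 to 5848 CPM and those in Mural2 from 6849 to 12913 CPM, without overlap. The channel genes Kcnj8 and Abcc9, whose products form a potassium channel gated by ATP, were at 332 ± 127 and 330 ± 79.3 CPM, which is 44.5% and 71.2% of their Mural2 levels. Over the list, the Mural1 level was 33.2% (Art3) to 99.8% (Rgs5) of the Mural2 level with a median of 51.6%.

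Rgs5, a regulator of G protein signaling and a common pericyte marker, departed from the rest of its list. It was measured at 3278 and 3406 CPM in the control, 3465 and 2974 CPM in the occluded and 3319 and 5109 CPM in the trained libraries of Mural1. The Mural2 libraries ran from 3030 to 3942 CPM and thus overlapped with those of Mural1, while EC1 ran from 391 to 476 CPM.

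The endothelial genes stood between EC1 and Mural2 for 21 of 22 members. The exception was Adgrf5, an adhesion G protein-coupled receptor, with 465 CPM in Mural1 and 461 CPM in EC1. Cldn5, the tight junction claudin of brain endothelium, was at 3465 ± 591 CPM in Mural1, 7156 CPM in EC1 and 152 CPM in Mural2. Its Mural1 libraries ran from 2503 to 4192 CPM, and the lowest EC1 library had 5485 CPM. Flt1 and Kdr, receptors for VEGF, were at 1561 and 234 CPM, against 1814 and 312 CPM in EC1. Over the list the Mural1 level was 38.6% (Ctla2a) to 101% (Adgrf5) of the EC1 level with a median of 68.3%. The 14 blood-brain barrier transporters all stood between both clusters too, with a median of 57.4% of EC1. Slco1a4, an organic anion transporter, was at 2025 CPM in Mural1 and 3386 CPM in EC1, and Slc2a1, the glucose transporter, was at 637 and 1090 CPM.

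**Figure D3:**
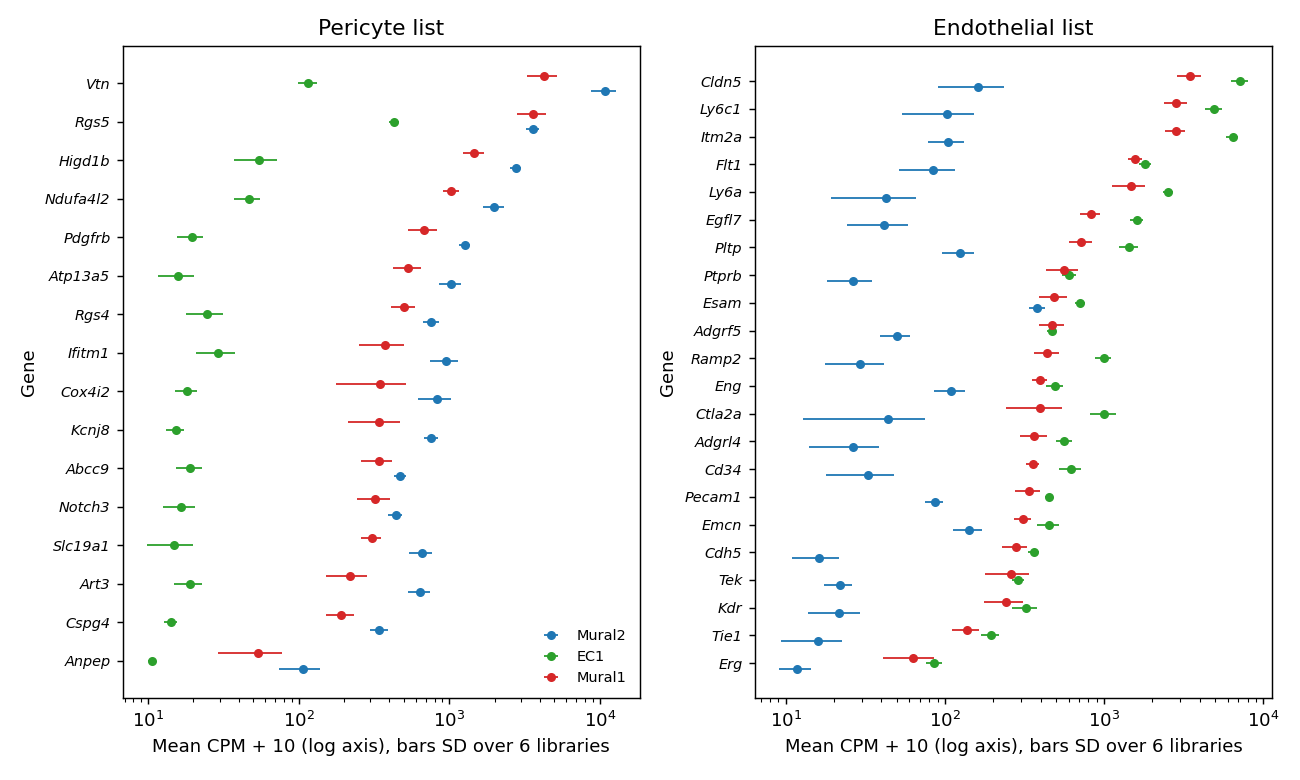
Mean CPM + 10 (log x axes) of each gene of the pericyte list (left) and the endothelial list (right) in Mural1, Mural2 and EC1, with bars for the SD over 6 libraries. The Mural1 points lie between both other clusters for all 16 pericyte genes and for 21 of 22 endothelial genes, with Rgs5 close to Mural2 and Adgrf5 close to EC1.

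Across the transcriptome, a gene was counted as higher or lower when its mean log2 ratio with a pseudocount of 10 CPM was at least 1 and its sign was the same in all 6 libraries, among genes with a mean of at least 50 CPM in 1 of both clusters. Against Mural2, 407 of 4074 genes (9.99%) were higher and 171 (4.2%) lower. Against EC1, 271 of 3903 (6.94%) were higher and 51 (1.31%) lower, and against EC2, 370 of 4027 (9.19%) were higher and 266 (6.61%) lower. These shares rest on the genes that made the clusters and are the background for the list counts below. The counts depended on the pseudocount: with 50 CPM, 261 were higher and 51 lower than in Mural2, and 166 higher and 12 lower than in EC1.

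Of the endothelial list, 21 of 22 compared genes counted as higher than in Mural2, and 12 of 14 transporters did. The largest ratios belonged to Ly6a, a GPI-anchored surface antigen (log2 ratio 5.25), Slco1a4 (5.22), Pglyrp1, a peptidoglycan recognition protein (5.10), Ly6c1 (4.99) and Abcb1a, the drug efflux pump of the barrier (4.82). Of the pericyte list, 15 of 15 compared genes counted as higher than in EC1, led by Vtn (5.18), Pdgfrb (5.12), the ATPase gene Atp13a5 (5.09), the antisense transcript Adap2os (5.07), which is outside the lists, and Higd1b (4.80). All of these genes had their highest level of the 4 clusters in EC1 or in Mural2, not in Mural1. Against EC2, 15 of 15 pericyte genes counted as higher, none of the 22 endothelial genes counted as higher or lower, and 10 of 10 astrocyte genes and 4 of 4 ensheathing glia genes counted as lower.

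The genes lower than in Mural2 were headed by contractile genes of smooth muscle. Acta2, smooth muscle actin, was at 702, 101, 37.0, 555, 126 and 42.4 CPM in the control 1 and 2, occluded 1 and 2 and trained 1 and 2 libraries of Mural1, and at 918 to 1855 CPM in Mural2. Each library of Mural1 lay below each of Mural2, and replicate 1 of the control and replicate 2 of the occluded libraries stood above the other 4. Tagln, transgelin, was at 130 ± 158 CPM against 841 CPM, Tpm2, a tropomyosin, at 98.8 ± 52.8 against 526 CPM, and Myh11, smooth muscle myosin, at 83.2 ± 60.0 against 350 CPM. Of the 14 smooth muscle genes, 12 could be compared and 5 counted as lower (Acta2, Tagln, Tpm2, Myh11 and Myl9). By the same rule, 7 of 16 pericyte genes also counted as lower than in Mural2, so such counts were not particular to smooth muscle genes. Per barcode, the smooth muscle list had 16.2 ± 3.54 UMIs in Mural1 and 15.3 ± 4.03 in Mural2 (mean ± SD, n = 6 libraries). Cald1, caldesmon, and Mylk, myosin light chain kinase, which pericytes also express, reached 1337 and 306 CPM against 1985 and 470 CPM. Cnn1 and Actg2 had 0 UMIs in Mural1.

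The 51 genes lower than in EC1 had smaller ratios, the largest being -1.44 for Ctla2a, an inhibitor of cathepsins, -1.41 for Xdh, xanthine dehydrogenase, -1.39 for Paqr5 and -1.38 for Cept1. The immediate early gene Junb (-1.33) was among them, at 140 ± 114 CPM in Mural1 and 302 CPM in EC1. Of the 10 early response genes compared, 2 counted as lower than in EC1 (Fos and Junb), and 5 of 11 counted as higher than in Mural2 (Jun, Ier2, Klf2, Klf4 and Klf6) and 1 as lower (Egr1). Klf2, a transcription factor that endothelial cells raise under flow, was at 986 CPM in Mural1, 1817 CPM in EC1 and 71.2 CPM in Mural2.

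Few genes were higher in Mural1 than in all 3 other vessel clusters. The minimum level was set on Mural1 alone, which favors genes that are high there, so the list is a description. Among 1751 genes with at least 100 CPM in Mural1, 22 were above Mural2, EC1 and EC2 in all 6 libraries. None of the 22 was above by 1 or more on the log2 scale over the highest of the 3. The first was Zfp638, a zinc finger protein that binds RNA and DNA, with 137 CPM in Mural1 against 76.9, 67.1 and 83.0 CPM in Mural2, EC1 and EC2 (log2 ratio over the highest 0.60 ± 0.27, SD, n = 6). It was followed by Arap2 (0.60 ± 0.38), Tns1, tensin, which ties actin to focal adhesions (0.57 ± 0.23), Msn, moesin, which links actin to the membrane (0.57 ± 0.34), Ankrd11 (0.55 ± 0.16), Fry (0.50 ± 0.26), Snrk (0.44 ± 0.32), Wapl (0.41 ± 0.25) and Rnpepl1 (0.41 ± 0.31). The 10 most abundant transcripts of Mural1 were Malat1 (52241 CPM), the mitochondrial mt-Atp6, mt-Co3, mt-Co1, mt-Cytb, mt-Nd1 and mt-Co2, and Bsg, Tmsb4x and Ptn. Bsg, basigin, stood at 8957 CPM between 16548 CPM in EC1 and 718 CPM in Mural2.

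The profile of Mural1 was then set beside a weighted mean of the EC1 and Mural2 profiles of the same library, with the weight that gave the highest Poisson likelihood over all genes. The share of EC1 in that mixture was 62.3% and 68.0% in the control, 57.9% and 58.7% in the occluded and 60.9% and 57.7% in the trained libraries, with a mean of 60.9% ± 3.90 (SD, n = 6). It was 62.4% ± 4.46 without the genes of both lists. With EC2 in place of EC1 it was 52.6%, and from the list genes alone 55.9%. Control replicate 2, with the highest weight, also held 3623 UMIs of the red blood cell list, and these genes were part of the fit. From the endothelial and pericyte genes alone, the share was 59.5% in control replicate 1 and 55.8% in control replicate 2. The part of red blood cell RNA in the weight was not tested. Of 1869 genes with at least 100 CPM in Mural1 or in the mixture, 1849 (98.9%) were within 2-fold of the mixture in the mean. For the same genes, 81.6% were within 2-fold of Mural2, 90.1% of EC1 and 84.6% of EC2. The weight was fitted to these profiles, so a closer match than to a single cluster follows in part from the fit. As means of libraries, the summed pericyte list was at 14399 CPM in Mural1 and 11067 CPM in the mixture. It was above the mixture in 6 of 6 libraries (log2 ratio 0.38 ± 0.24). The endothelial list was at 18638 and 20861 CPM, above the mixture in 0 of 6 (-0.16 ± 0.10).

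Only 9 genes were over 2-fold from the mixture with the same sign in all 6 libraries. Above it were Rgs5, at 3592 CPM against 1662 CPM in the mixture (log2 ratio 1.09 ± 0.26), and Gkn3, gastrokine 3, a gene of arterial endothelium, at 232 against 66.6 CPM (1.37 ± 1.11). The 7 genes below it included Atp1b1, S100b, Fabp7, Pcp4, Gng13 and S100a5, with log2 ratios from -1.36 to -1.01. Fabp7 and S100b are known from glia, and S100a5 and Gng13 from olfactory sensory neurons. All 7 had a lower mean CPM in Mural1 than in Mural2 and in EC1. The summed astrocyte list was at 525 CPM in Mural1 and 842 CPM in the mixture, the oligodendrocyte list at 772 and 1301 CPM and the ensheathing glia list at 982 and 1821 CPM, each below the mixture in 6 of 6 libraries. The microglia list was at 318 and 464 CPM, below it in 5 of 6. The neuron list was at 1046 and 1059 CPM, where Meg3, a long noncoding RNA, was at 421 against 336 CPM in the mixture and Stmn2, a regulator of microtubules, at 140 against 73.7 CPM, while the other 8 genes had negative mean log2 ratios to the mixture. Mag and Mog, defining genes of myelin, had 0 UMIs in Mural1, and no gene of the astrocyte, microglia, neuron or ensheathing glia lists was at 0. The part of depth in these lower levels was not tested.

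**Figure D4:**
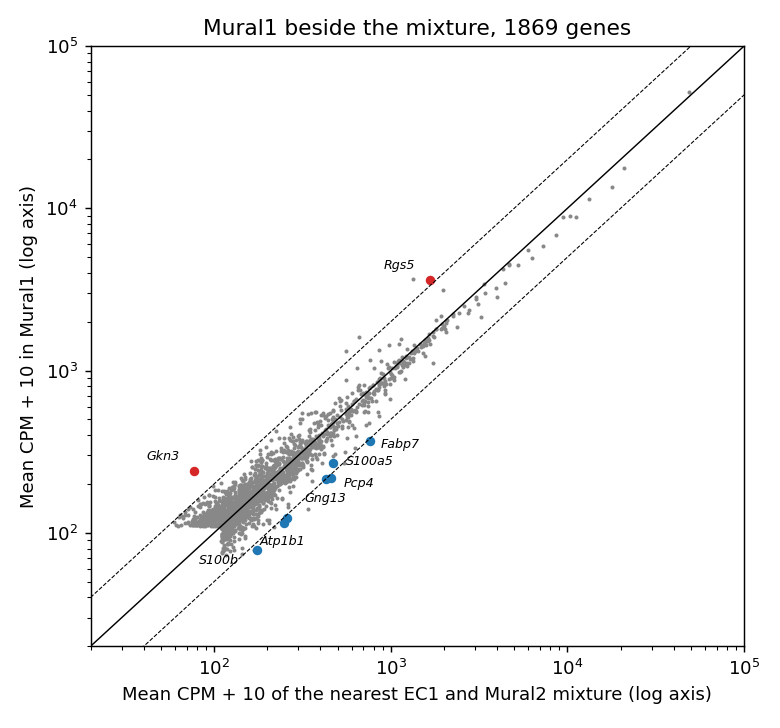
Mean CPM + 10 over 6 libraries in Mural1 (y axis) against the nearest mixture of EC1 and Mural2 (x axis) for 1869 genes, both on log axes, with a solid line at equality and dashed lines at 2-fold. The 2 red points, Rgs5 and Gkn3, and the 7 blue points were on the same side in all 6 libraries and over 2-fold away in the mean of log2 ratios.

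Arterial endothelial genes were the list farthest above the mixture. Its 9 genes summed to 1022 ± 332 CPM in Mural1 and to 526 CPM in the mixture (log2 ratio 0.90 ± 0.45), above it in 6 of 6 libraries. Vegfc, a VEGF family ligand, was at 71.7 ± 38.1 CPM in Mural1, against 23.1 CPM in EC1 and 1.45 CPM in Mural2, and Bmx, a tyrosine kinase of arterial endothelium, was at 64.5 ± 25.6 against 34.1 and 0 CPM. Gkn3 was at 644 CPM in control replicate 1 and between 102 and 256 CPM in the other Mural1 libraries, beside 65.0 to 160 CPM in EC1, so its libraries overlapped with those of EC1. The counts were small, with 138 UMIs of Gkn3 and 40 of Vegfc over all Mural1 cells. None of the 7 compared arterial genes counted as higher than in EC1, where the list summed to 836 CPM. Vegfc had a log2 ratio of 1.23 over EC1 but not the same sign in all 6 libraries. The venous list was at 566 CPM in Mural1 and 591 CPM in the mixture. The smooth muscle list was at 4095 ± 787 and 4170 CPM, with Acta2 and Tagln below the mixture (log2 ratios -1.74 and -2.23) in 4 and 5 of 6 libraries and Cald1 and Mylk above it (0.65 and 0.52) in 6 of 6.

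Genes of the basement membrane, which both cell types secrete, summed to 3204 ± 388 CPM in Mural1, against 2513 CPM in the mixture, 2410 CPM in Mural2 and 2576 CPM in EC1. The sum was above the mixture in 6 of 6 libraries (log2 ratio 0.35 ± 0.07). Col4a1 and Col4a2, chains of type IV collagen, were at 356 and 218 CPM, above their means in Mural2 (305 and 176 CPM) and EC1 (242 and 148 CPM). Nid1, nidogen, was at 174 CPM, close to the 198 CPM of Mural2, and Fn1, fibronectin, at 521 CPM, close to the 636 CPM of EC1.

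Ligands higher in EC1 than in Mural2 and receptors higher in Mural2 than in EC1 were measured together in Mural1 for the pairs Pdgfb with Pdgfrb and Edn1 with Ednra. A mixture of both profiles holds both members of each pair too. It had 86.1 CPM of Pdgfb, 497 of Pdgfrb, 88.0 of Edn1 and 57.4 of Ednra. The log2 ratios of Mural1 to the mixture were 0.42, 0.40, 0.83 and 0.38. The ligand gene Pdgfb was at 121 ± 33.0 CPM, against 135 CPM in EC1 and 10.8 CPM in Mural2, beside its receptor Pdgfrb given above. Edn1, the vasoconstrictor endothelin, was at 184 ± 89.7 CPM, against 144 CPM in EC1 and 1.71 CPM in Mural2, and its receptor Ednra was at 83.2 ± 38.7 CPM, against 145 CPM in Mural2 and 0.982 CPM in EC1. S1pr1, the endothelial receptor for sphingosine 1-phosphate, was at 325 ± 153 CPM, against 356 CPM in EC1 and 28.2 CPM in Mural2, and S1pr3, another receptor of the family, was at 137 ± 42.2 CPM, against 4.36 and 247 CPM. Notch3, the receptor of mural cells, was at 313 ± 80.3 CPM, against 432 CPM in Mural2 and 6.44 CPM in EC1. The Notch ligand gene Jag1 was at 126 ± 31.9 CPM and was also higher in Mural2 (157 CPM) than in EC1 (71.2 CPM), so this pair was not divided between both clusters. Of 25 signaling genes, 19 were compared with each cluster. Of these, 10 counted as higher than in Mural2 and 5 as higher than in EC1, and none counted as lower than either. Over all compared genes, 9.99% were higher than in Mural2 and 6.94% higher than in EC1. The counts are not separate from the marker lists: Tek, Tie1, Flt1, Kdr and Eng are also endothelial list genes, and Pdgfrb and Notch3 pericyte list genes.

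Fibroblast genes were low, at 351 ± 99.0 CPM in sum, against 667 CPM in Mural2 and 23.2 CPM in EC1. Igf2, a growth factor, and Col1a2 were highest of the list in Mural1, at 120 and 75.3 CPM. The red blood cell list was uneven: of the 158 cells, 2 had at least 10 UMIs of it, both from control replicate 2, where the list summed to 3623 UMIs, with up to 2428 in 1 cell. The other 5 libraries of Mural1 had between 1 and 20 such UMIs.

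The numbers of Mural1 cells were compared between conditions over libraries. Mural1 made up 0.220% and 0.272% of annotated cells in the control, 0.316% and 0.459% in the naris occluded and 0.369% and 0.164% in the olfactory trained libraries, from 22, 21, 23, 42, 39 and 11 cells. Both occluded libraries lay above both controls, and the trained libraries lay on either side of them. In edgeR's quasi-likelihood test over all 38 clusters with Benjamini-Hochberg adjustment, the log2 fold change was 0.67 (SE 0.53, adjusted p = 0.525) for occluded and 0.18 (SE 0.55, adjusted p = 0.828) for trained against control, and neither passed the threshold of 0.05. Of all clusters, 1 passed for occluded (2.63%) and 0 for trained (0%), where 3 had an unadjusted p under 0.05 and DESeq2 also called 0. With a block for the replicate number, which also divides the sexes, 3 clusters passed for occluded and 2 for trained. Mural1 was not among them (edgeR adjusted p = 0.565 and 0.877). Without occluded replicate 2 the occluded value was 0.37, and without occluded replicate 1 it was 0.91. Without trained replicate 1 the trained value was -0.57, and without trained replicate 2 it was 0.59. Per 100 Mural2 cells, Mural1 had 15.1 and 16.7 cells in the control, 26.4 and 24.1 in the occluded and 30.7 and 10.1 in the trained libraries.

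The endothelial share of marker UMIs in Mural1 was 60.1% and 56.6% in the control, 52.5% and 58.2% in the occluded and 58.2% and 53.8% in the trained libraries. The groups overlapped. The mean differed from the control by -2.96 percentage points for occluded and by -2.32 for trained, each with p = 0.667 in an exact two-sided permutation test, where 2 against 2 libraries cannot go below 0.333. The values rested on single libraries: the occluded difference was -0.14 without occluded replicate 1, -1.18 without control replicate 1, -4.73 without control replicate 2 and -5.77 without occluded replicate 2. The trained difference was -0.10 without trained replicate 2, -0.55 without control replicate 1, -4.09 without control replicate 2 and -4.54 without trained replicate 1. After thinning each cell to 500 UMIs, the occluded difference was -0.996 and the trained difference turned to 1.85.

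Genes were tested between conditions on the UMIs summed per library in Mural1, which came to between 47173 and 140552, and 2258 genes passed the filter on low counts. With edgeR's quasi-likelihood test and Benjamini-Hochberg adjustment, 1 gene (0.0443%) passed for occluded against control and 0 (0%) for trained, where 131 had an unadjusted p under 0.05 and DESeq2 called 0. No tested member of the 16 gene lists passed in either comparison. The 15 tested pericyte genes had a median log2 fold change of 0.16 and the 21 endothelial genes of -0.16 for occluded, and 0.04 and -0.15 for trained, beside 0.00 and 0.01 over all genes tested. The genes called were not stable when a library was left out. Each such fit leaves 1 pool of 1 sex in a group, so its count is not given. Without control replicate 1, hemoglobin genes, Xist and Ddx3y were among those called for trained. The control was then the female pool that held the 2 cells with at least 10 red blood cell UMIs. Without control replicate 2, the control was the male pool, and Acta2, Tagln, Gkn3 and Xist were among those called. Hemoglobin genes were also called for trained without occluded replicate 1. The part of sex and of the 2 cells in these calls was not tested.

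The gene that fell in occluded libraries was S100a5, which encodes a calcium-binding protein known from olfactory sensory neurons. It had 587 and 247 CPM in the control, 83.2 and 42.7 CPM in the occluded and 369 and 233 CPM in the trained libraries of Mural1, from 51, 22, 9, 6, 47 and 11 UMIs. Both occluded libraries lay below both controls (log2 fold change -2.76, SE 0.45, edgeR adjusted p = 0.0206). The call was lost without occluded replicate 2 (log2 fold change -2.32, edgeR adjusted p = 0.787), in DESeq2 (-2.78, adjusted p = 0.469), in a fit of only both groups (-2.77, edgeR adjusted p = 0.191) and in cells with at least 1000 UMIs (-2.66, edgeR adjusted p = 0.0993), with a negative value in each. The same order was measured outside Mural1: all clusters other than the 4 vessel clusters had 1280 and 1258 CPM in the control and 549 and 214 CPM in the occluded libraries, and Mural2 had 914 and 611 against 301 and 107 CPM. Mural1 had the lowest S100a5 level of these cells in every library. The part of free RNA from other cells in this difference was not tested.

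**Figure D5:**
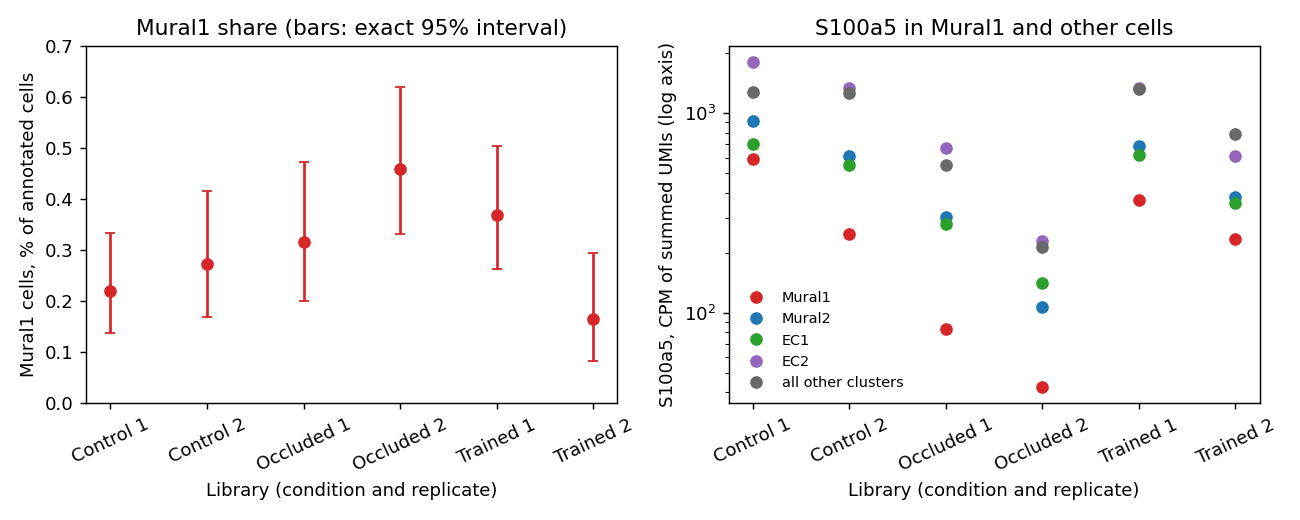
Left, Mural1 cells as a percentage of annotated cells in each library, with exact 95% binomial intervals for counting error. Right, S100a5 in CPM (log axis) in each library for Mural1, Mural2, EC1, EC2 and all other clusters; both occluded libraries lie below both controls in Mural1 and in the other groups of cells.

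The next genes by p value for occluded against control were Rrp1, a ribosome biogenesis factor, with a log2 fold change of 1.46 (SE 0.40, edgeR adjusted p = 1.00), and Ccnd2, cyclin D2, with -1.19 (SE 0.37, edgeR adjusted p = 1.00). For trained against control the lowest p belonged to Gatm, an enzyme of creatine synthesis, with 414 and 483 CPM in the control and 949 and 912 CPM in the trained libraries (log2 fold change 1.03, SE 0.23, edgeR adjusted p = 0.472). S1pr1 had 207 and 169 CPM in the control and 479 and 530 CPM in the trained libraries (1.38, SE 0.32, edgeR adjusted p = 0.472). Ccnd2 had 207 and 247 CPM in the control and 62.8 and 84.8 CPM in the trained libraries (-1.71, SE 0.43, edgeR adjusted p = 0.578). These 3, chosen for the lowest p, did not pass the threshold in the fit of all 6 libraries. Their trained libraries did not overlap with the controls, which the choice by p favors.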

How the data were processed

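Per the labels and the study's methods, the authors dissociated bulbs with papain, captured cells with 10x Chromium Single Cell 3′ v2 reagents and sequenced them on a NextSeq500. The submitters' processing notes name Cell Ranger 2.0.0, Seurat 2.2.1 and mm10. The authors deposited counts of UMIs per gene and cell (18560 genes, 52549 barcodes) without normalization, and an annotation with the cluster, the library and the mitochondrial fraction of UMIs of each cell, the deposited fraction being printed as a percentage. They kept cells with at least 200 genes, removed doublets, regressed out UMI and mitochondrial content and merged clusters. No doublet caller was run here and no cell was filtered. Normalized values and a second annotation of neurons were not used. Cells were assigned by the library column, since the prefixes of the cell names swap both trained libraries. Of the Mural1 barcodes, 8 occur in another library. Members and gene lists were chosen with earlier results of these data known.

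UMIs were summed per cluster and library. Between clusters, CPM and log2 ratios (pseudocount 10 CPM) were described. Between conditions, edgeR 4.0.16 (quasi-likelihood, TMM, filterByExpr, all 6 libraries) tested Mural1 sums, and numbers of cells with all annotated cells as offset; DESeq2 1.42.0 was an alternative. Scripts were tested on simulated data. Named genes were the list genes, the 10 highest in Mural1, the leading genes higher or lower than in Mural2 and EC1, the 10 above all 3 clusters, and the 3 lowest p per condition comparison or those called. Some genes that this rule names are not reported here. Libraries are pools of mice, 2 per condition, male in replicate 1 and female in replicate 2. The p-values thus measure the spread between pools. Between conditions and without a block, this spread includes the difference between the sexes. Intervals and depth cover counting error only.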

Additional observations from a re-analysis of the deposited data

Results flagged for a closer look

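Among the 1123 barcodes that the annotation gives no cluster, 4 had at least 10 UMIs of both the endothelial and the pericyte list, which is 0.356% of them and above the 3 counts that a count of 0 allows. The same measure in the annotated cells outside the vessel clusters was 0.425% (199 of 46851 cells), so the share among the barcodes without a cluster was no higher than in those cells. These barcodes were in no comparison, and 1 of them had at least 20 UMIs of both lists. With 2 libraries per condition, no group of samples was large enough for the test of a single outlying library.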

How the results depend on the processing

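Leaving out a library kept the higher median UMIs of Mural1, at log2 ratios of 1.36 to 1.39 over Mural2, 1.08 to 1.14 over EC1 and 2.2 to 2.3 over EC2, with p = 0.0625 in the exact permutation test, the smallest that 5 libraries allow. The log2 fold change of the number of Mural1 cells ranged from 0.37 to 0.91 for occluded and from -0.57 to 0.59 for trained. The genes called between conditions changed with the library left out, and their counts are not given because each such fit leaves 1 pool in a group. The endothelial share differed by -5.77 to -0.14 percentage points for occluded and by -4.54 to -0.10 for trained. The numbers of genes higher and lower ranged from 421 to 448 and 174 to 216 for Mural2, 267 to 290 and 49 to 73 for EC1, and 375 to 418 and 279 to 292 for EC2, and the mixture share from 59.5% to 61.5%.

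For occluded libraries, DESeq2 without the filter on low counts, a fit of only both groups and the 157 cells with at least 1000 UMIs called 0 genes. The main test without that filter called 5. For trained libraries, no filter called 6 genes, 4 of them hemoglobin genes. Thinning to 500 UMIs changed the occluded difference in endothelial share to -0.996 points and turned the trained difference to 1.85 points. A pseudocount of 50 CPM gave 261 higher and 51 lower genes for Mural2, 166 and 12 for EC1, and 201 and 135 for EC2. No filter gave 318, 97 and 500 lower genes for Mural2, EC1 and EC2. A 1.5-fold ratio gave 388 lower genes for Mural2, 240 for EC1 and 634 higher for EC2, and control libraries alone gave 349 and 146 lower for Mural2 and EC1. The EC1 share was 52.6% with EC2 and 55.9% from list genes. The share with both Pdgfrb and Slco1c1 was 14% at 1000 UMIs, 66.5% unthinned and 0% at 2 UMIs each, and that of both lists was 100% at 1000 UMIs and unthinned. The cause of these changes was not tested.

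The replicate numbers, which also divide male from female pools, were used as a replicate block only in alternative fits. Same-numbered libraries deviated from their groups with correlations of -0.03 to 0.06 over 1751 genes. The main tests between conditions had no block, so the difference between the sexes is part of their spread. With the replicate block the cell number changed by 0.68 and 0.19 on the log2 scale, the gene counts were 1 and 0, the clusters of all 38 that passed in number of cells were 3 and 2 in place of 1 and 0, and the endothelial share differed by -2.96 and -2.32 points for occluded and trained. The transporters share 0 genes with the endothelial list, so leaving them out changed nothing, and adding them, an alternative chosen after seeing the data, kept the sign. Depth limits Mural1 most in trained replicate 2, with 11 cells.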

Other observations

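The 4 vessel clusters differed in RNA of other cells. The summed ensheathing glia list was at 9034 ± 2554 CPM in EC2, 2802 ± 723 CPM in Mural2, 1174 ± 221 CPM in EC1 and 982 ± 462 CPM in Mural1 (SD, n = 6 libraries), so Mural1 had the lowest mean beside the most UMIs per cell. For the astrocyte list the order was EC2 (3484 CPM), Mural2 (1153 CPM), EC1 (641 CPM) and Mural1 (525 CPM). Mural1 was not lowest for every list. The neuron list was at 683 CPM in EC1 and 1046 CPM in Mural1, and the microglia list at 262 and 318 CPM.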
